A study of Mus musculus with 10 samples.

Results

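The nuclear factor I (NFI) family comprises 4 mouse genes, Nfia, Nfib, Nfic and Nfix. They were taken by gene symbol from the count table, in which they are 4 of 55401 genes, and all 4 were among the 17464 genes with enough counts to be tested. The family was chosen by the measured levels of Nfix, which were higher in every liraglutide tumor than in any vehicle tumor, and its paralogs were added by name. The comparison of Nfix between the treatments is therefore given as a description, without a test, and the tests are kept for its paralogs and for measures that do not use that comparison.

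RNA was sequenced, after removal of ribosomal RNA, from fragments of 10 subcutaneous tumors grown from KPN1.1, a single lung adenocarcinoma line of mouse that carries the NINJA neoantigen allele. The hosts were male C57BL/6J mice with an intact immune system, made obese by a diet with 60% of calories from fat. The study's methods give their age only as a range of 7 to 17 weeks. Once a tumor could be felt, 5 mice were injected daily into the peritoneum with liraglutide, a GLP-1 receptor agonist, at 0.2 µg per g of body weight, and 5 with PBS as vehicle, and the tumors were taken at day 19 to 22. All 10 tumors thus shared the cell line, the host strain and the diet. The question was which transcripts differed between treated and untreated tumors of obese mice.

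NFI proteins bind DNA as homodimers or heterodimers through a conserved amino-terminal domain and can activate or repress transcription through a more variable carboxy-terminal part. In the lung, Nfib is needed for epithelial and mesenchymal maturation before birth and is amplified in small cell lung cancer. Nfia and Nfib drive gliogenesis, Nfic is known for tooth root formation, and Nfix for the switch from embryonic to fetal muscle and for the maintenance of neural and blood stem cells.

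The genes lie at 3 places in the genome (GRCm39, GENCODE M39). Nfia (ENSMUSG00000028565.18) spans chr4:97660971-98007111 on the plus strand, and Nfib (ENSMUSG00000008575.17) chr4:82208410-82623987 on the minus strand. Nfic (ENSMUSG00000055053.18) spans chr10:81232020-81291469 and Nfix (ENSMUSG00000001911.16) chr8:85426505-85527046, both on the minus strand. Identifiers are printed as in the count table.

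How alike the 4 coding sequences are decides whether reads can be told apart. A stretch of 60 bases of the second coding exon is therefore shown, chosen for the most bases identical in all 4 genes. This exon is 532 bp long in all 4 genes and encodes part of the DNA-binding domain. The stretch runs from base 53 to base 112 of the exon, at chr4:97671371-97671430 (Nfia, plus strand), chr4:82416895-82416954 (Nfib, minus), chr10:81256521-81256580 (Nfic, minus) and chr8:85498833-85498892 (Nfix, minus), read 5′ to 3′ on the strand of the gene. Capitals mark the bases that differ from Nfix.
Nfia: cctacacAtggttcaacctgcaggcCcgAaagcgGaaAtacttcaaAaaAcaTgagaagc
Nfib: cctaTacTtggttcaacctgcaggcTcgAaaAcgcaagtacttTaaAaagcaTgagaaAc
Nfic: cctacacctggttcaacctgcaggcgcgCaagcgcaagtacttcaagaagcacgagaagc
Nfix: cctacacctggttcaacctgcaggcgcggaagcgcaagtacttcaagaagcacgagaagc

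In this stretch 48 of the 60 bases were the same in all 4 genes, and Nfia, Nfib and Nfic differed from Nfix at 8, 9 and 1 bases. Over the whole exon, identity to Nfix was 82.0% for Nfic and 78.6% for both Nfia and Nfib, and over the coding sequence identity between any pair lay between 65.8% and 72.9%. The longest run of bases shared by a pair was 32 bp, between Nfic and Nfix. None of the 100-base windows of the 4 canonical transcripts (5377 in Nfix to 9467 in Nfia) occurred in a transcript of another gene. Windows of the other annotated transcripts of the 4 genes were not checked.

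Some exons do overlap genes on the opposite strand, and the strand setting of the counting was not given in the sources used here. Nfix exons share 344 bp with Trmt1, a tRNA methyltransferase, 229 bp with Lyl1, a transcription factor of blood cells, and 137 bp with the lncRNA G430095P16Rik. Trmt1 had 511 to 841 counts per tumor and a log2 fold change of −0.06. Lyl1 and G430095P16Rik had positive fold changes, 0.59 and 0.37, at no more than 33 and 27 counts, against 633 to 1811 for Nfix. Nfic exons share 532 bp with the lncRNA Gm53593, for which no counts were analysed here, and 174 bp with Gm16104, which had at most 29 counts.

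The total count per tumor ranged from 9927942 to 14480593, and 3 counts, taken as the floor, equalled 0.207 to 0.315 CPM. Each NFI gene had between 633 and 3450 counts in every tumor, a depth at which none was near the floor. CPM are counts divided by the library total, here scaled by TMM, a correction for library composition. The fragments showed the labelled epithelial identity through Krt8 (1631 to 3294 CPM), Krt18 (1039 to 1999 CPM) and Cdh1 (560 to 2236 CPM), but Epcam, Sftpc and Napsa did not exceed 5.95 CPM, and Nkx2-1 ranged from 17.7 to 132 CPM. The first principal component of log2 CPM (48.7% of the variance) split the vehicle tumors, with numbers 1 to 3 at −69.3 to −32.4 and numbers 4 and 5 at 38.5 and 39.3, and the liraglutide tumors at −28.1 to 49.7. Vehicle tumor 5 stood apart on the second component (11.0% of the variance, −54.6, the others −18.5 to 21.4).

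Nfix, the factor of the fetal muscle program, had 75.2, 72.6, 66.5, 79.3 and 96.8 CPM in vehicle tumors 1 to 5. In liraglutide tumors 1 to 5 it had 116, 124, 119, 107 and 135 CPM. The groups did not overlap: the lowest liraglutide tumor, number 4, lay above the highest vehicle tumor, number 5. The vehicle mean was 78.1 ± 11.4 CPM and the liraglutide mean 120 ± 10.1 CPM (SD, n = 5 each), a fitted log2 fold change of 0.62 with an SE of 0.11, or 1.54-fold. Among all genes tested, 1.49% had groups without overlap, 0.607% with the liraglutide tumors higher, and since Nfix was chosen for this pattern nothing is read from its place among them. In bulk tumor RNA, a change in the number of cells that express a gene and a change in its RNA per cell cannot be told apart.

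**Figure D1:**
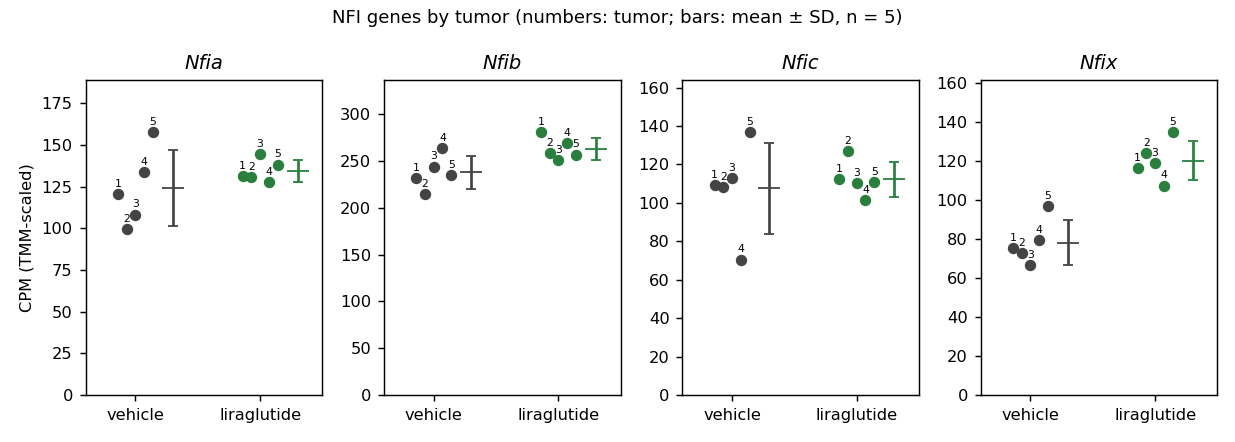
Levels of the 4 NFI genes in each tumor, in TMM-scaled CPM on linear axes from 0, for 5 vehicle (grey) and 5 liraglutide (green) tumors; small numbers give the tumor and bars the mean ± SD. In Nfix the 5 liraglutide tumors (107 to 135) all lie above the 5 vehicle tumors (66.5 to 96.8), while in Nfia, Nfib and Nfic the groups overlap.

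Nfib, the lung maturation factor, was the most abundant by CPM. It had 232, 215, 244, 263 and 235 CPM in vehicle tumors 1 to 5 and 281, 258, 251, 269 and 257 CPM in liraglutide tumors 1 to 5. All 5 liraglutide tumors were above the vehicle mean, but 2 of them, numbers 1 and 4, were above the highest vehicle tumor, so the groups overlapped. Means were 238 ± 17.8 and 263 ± 11.8 CPM (SD, n = 5 each). The log2 fold change was 0.15 (SE 0.08, 95% interval −0.04 to 0.33), which did not pass the edgeR quasi-likelihood test (Benjamini-Hochberg adjusted p = 0.587 over all genes tested).

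Nfia, the gliogenic factor, had 121, 99.6, 108, 134 and 158 CPM in vehicle tumors 1 to 5. Its values in liraglutide tumors 1 to 5 were 131, 131, 144, 128 and 138 CPM, all inside the range of the vehicle tumors. Means were 124 ± 22.8 and 134 ± 6.70 CPM (SD, n = 5 each), and the log2 fold change of 0.12 (SE 0.12, 95% interval −0.15 to 0.39) did not pass the edgeR test (adjusted p = 0.754). Without vehicle tumor 5, which stood apart, it was 0.22, and without vehicle tumor 2 it was 0.05.

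Nfic had 109, 108, 113, 70.5 and 137 CPM in vehicle tumors 1 to 5, and 112, 127, 110, 101 and 111 CPM in liraglutide tumors 1 to 5. The vehicle tumors 4 and 5 held both the lowest and the highest value of all 10, and the liraglutide tumors lay between them. Means were 108 ± 23.8 and 112 ± 9.14 CPM (SD, n = 5 each), with a log2 fold change of 0.06 (SE 0.15, 95% interval −0.27 to 0.39, edgeR adjusted p = 0.903). Its sign rested on vehicle tumor 4, without which it was −0.05 (adjusted p = 0.841). Without vehicle tumor 5 it was 0.17.

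None of the 3 paralogs was thus called. This has to be read against the whole table, in which the edgeR test called 0 of 17464 genes (0.0%) at an adjusted p under 0.05, and 1675 (9.59%) had an unadjusted p under 0.05, 694 of them (3.97%) higher with liraglutide and 981 (5.62%) lower. That count of 1675 was 919 without liraglutide tumor 5 and 2704 without vehicle tumor 4. DESeq2 called 52 of the 3796 genes to which it gave an adjusted p (1.37%), 14 of them higher with liraglutide (0.369%), and limma-voom called 0 (0.0%). None of the paralogs had an unadjusted edgeR p under 0.05. The 95% intervals leave room for a log2 difference of up to 0.33 in Nfib and 0.39 in Nfia and Nfic, and a p that misses the threshold does not show that these genes were unaffected. P-values measure the spread between tumors of separate mice. Whether these came from a single experiment is not given in the sources used here.

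**Figure D2:**
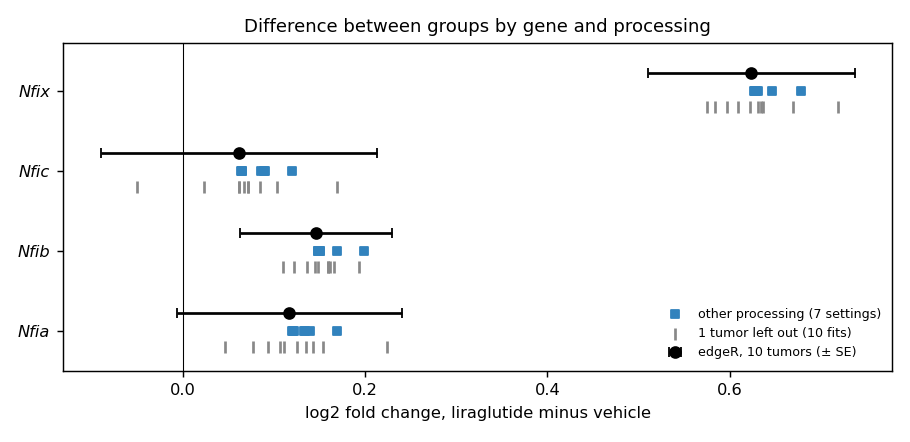
Log2 fold change between liraglutide and vehicle tumors for each NFI gene: the edgeR value with its SE (black circles), 7 other ways of processing (blue squares) and the 10 fits that leave out 1 tumor (grey ticks). The sign of Nfix was fixed by its choice, its size lies between 0.58 and 0.72, and Nfic reaches −0.05 when vehicle tumor 4 is left out.

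The fitted change of Nfix was 0.62 with all tumors and 0.72 without vehicle tumor 5. Because Nfix was chosen for groups that did not overlap, its sign could not turn when 1 tumor was left out, and the range of 0.58 to 0.72 over these fits describes its size only. Scaling by library size alone moved the median log2 fold change of all genes from −0.02 to 0.04 and those of Nfia, Nfib and Nfic to 0.17, 0.20 and 0.12.

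Levels can be compared between genes only per length. With CPM divided by the kilobases of merged exons, Nfic had 16.4 ± 2.57, Nfib 15.3 ± 1.19, Nfix 13.4 ± 3.30 and Nfia 11.5 ± 1.49 CPM per kb (SD, n = 10 tumors). Over all 10 tumors, Nfic and Nfib did not differ beyond their spread in a two-sided exact sign-flip permutation test (adjusted p = 0.367 over 3 comparisons). The neighbours that include Nfix are given by group and without a test, because its levels chose the family. In vehicle tumors Nfix had 10.5 ± 1.54 CPM per kb beside 11.0 ± 2.02 for Nfia (SD, n = 5) and was above Nfia in 1 of 5 tumors, and Nfib was above Nfix in 5 of 5. In liraglutide tumors Nfix had 16.2 ± 1.36 CPM per kb beside 11.9 ± 0.594 for Nfia (SD, n = 5) and was above it in 5 of 5, without overlap, and it was above Nfic (16.8 ± 1.37) in 1 of 5. Nfib (16.0 ± 0.719) was above Nfix in 2 of 5 liraglutide tumors, so the pooled order of these 2 genes did not hold in that group.

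The order depended on the length used. Per kb of coding sequence Nfib stood first with 146 ± 11.4 and above Nfia (83.0 ± 10.8, adjusted p = 0.00586, exact sign-flip permutation test, n = 10), in 5 of 5 tumors of each group. Nfia stood above Nfix (66.9 ± 16.5 over all tumors) by mean, with 79.6 ± 14.7 against 52.7 ± 7.72 in vehicle tumors (5 of 5 tumors) and 86.4 ± 4.30 against 81.2 ± 6.81 in liraglutide tumors (4 of 5). Nfic came last by mean (59.9 ± 9.35), and Nfix was above Nfic in 1 of 5 vehicle and 5 of 5 liraglutide tumors. Per kb of the longest transcript, Nfib (27.1 ± 2.11) stood above Nfic (17.6 ± 2.75, adjusted p = 0.00586, exact sign-flip permutation test, n = 10), in 5 of 5 tumors of each group. By this length too, Nfix was above Nfia in 1 of 5 vehicle and 5 of 5 liraglutide tumors. Nfib was first by both of these lengths. By merged exons its mean was below that of Nfic over all tumors, and below those of Nfic and Nfix in liraglutide tumors.

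The make-up of the family is given as a description, since it rests on Nfix. The length-scaled sum over the 4 genes was 52.1 ± 5.57 CPM per kb in vehicle and 61.0 ± 2.24 in liraglutide tumors (merged exons, SD, n = 5 each). These groups overlapped, because vehicle tumor 5 (61.8) lay inside the liraglutide range of 57.4 to 63.0. Nfix made up 20.2% ± 1.52 of the sum in vehicle tumors (17.8 to 21.7%) and 26.5% ± 1.47 in liraglutide tumors (25.2 to 29.0%). The shares of Nfia (21.0% and 19.6%), Nfib (28.1% and 26.4%) and Nfic (30.8% and 27.5%) overlapped between the groups. Within each tumor, the log2 CPM per kb of merged exons of Nfix minus the mean of its 3 paralogs was −0.37 ± 0.13 with vehicle. With liraglutide it was 0.13 ± 0.10, again without overlap (vehicle −0.58 to −0.24, liraglutide 0.03 to 0.30). The lengths used shift this value by the same amount in every tumor. Its sign therefore depends on them, and the gap between the groups does not. Vehicle tumor 5, highest of its group in Nfix, was also highest in Nfia and Nfic, and on this ratio (−0.30) it lay inside the vehicle range.

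**Figure D3:**
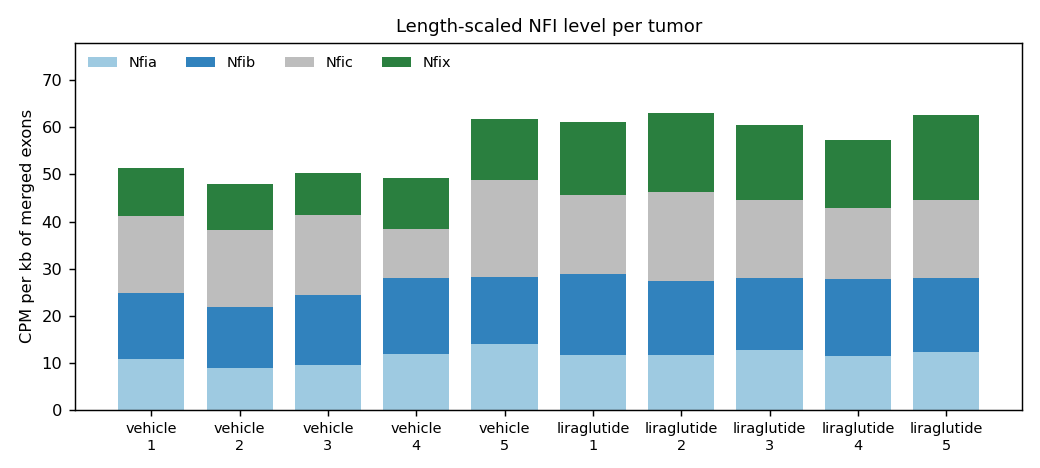
Length-scaled level of the 4 NFI genes stacked for each tumor, in CPM per kb of merged exons. The green Nfix segment makes up 17.8 to 21.7% of the bar in vehicle tumors and 25.2 to 29.0% in liraglutide tumors, while the height of the bar for vehicle tumor 5 (61.8) is within the liraglutide range.

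The members also differed in how much they varied between tumors of one group. The within-group SD of log2 CPM was 0.09 for Nfib, smaller than in all but 1.21% of tested genes, 0.17 for Nfix, 0.19 for Nfia and 0.26 for Nfic, against a median of 0.33 over all tested genes. Counting error widens the spread of genes with few counts. The tested genes were not matched for count depth, and Nfib had 2118 to 3450 counts per tumor. Groups without overlap favor a small spread, so nothing is read from the place of Nfix in this comparison. All 4 varied less among liraglutide than among vehicle tumors: the coefficient of variation was 18.4% and 4.98% for Nfia, 7.49% and 4.48% for Nfib, 22.1% and 8.14% for Nfic, and 14.7% and 8.39% for Nfix, with vehicle given first. A smaller SD of log2 CPM in liraglutide tumors was the rule over the whole table, at 70.7% of tested genes, so the members followed the majority.

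After the group means were removed, Nfia and Nfix deviated together over the 10 tumors. Pearson's r was 0.81 (p = 0.0142, two-sided exact permutation within groups) and Spearman's ρ 0.78 (p = 0.0192, same test), and r was 0.71 without the 2 tumors farthest from the median of Nfia. Over the 6 pairs of members the adjusted p was 0.0854, so the relation did not pass. Vehicle tumor 5 was the highest of its group in both genes, and r was 0.56 without it (adjusted p = 0.478, exact permutation), while without liraglutide tumor 3 r was 0.84 (adjusted p = 0.0417, exact permutation). The other pairs had r of 0.28 (Nfia and Nfib), 0.08 (Nfia and Nfic), −0.56 (Nfib and Nfic), −0.08 (Nfib and Nfix) and 0.29 (Nfic and Nfix), with adjusted p of 0.615 or more (exact permutation). Each of these 5 changed sign when 1 of the vehicle tumors was left out.

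**Figure D4:**
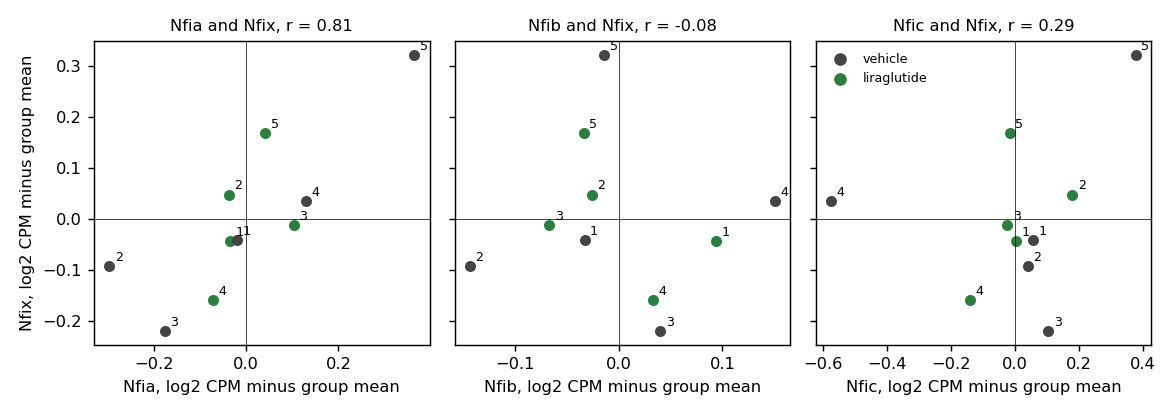
Deviation of Nfix from its group mean (vertical) against that of Nfia, Nfib and Nfic (horizontal), in log2 CPM, for 5 vehicle (grey) and 5 liraglutide (green) tumors numbered as in the labels. Nfia and Nfix deviate together (r = 0.81), with vehicle tumor 5 at the upper right, and Nfib and Nfix do not (r = −0.08).

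Among 16845 genes with a mean of at least 1 CPM, Nfia ranked 138th by this r with Nfix. The genes most like Nfix over the 10 tumors were the lncRNAs Arhgap27os3 (r = 0.98) and Gm19557 (r = 0.96) and Ctdsp2 (r = 0.98), a phosphatase that acts on RNA polymerase II and SMAD proteins. Their log2 fold changes with liraglutide were 0.01, 0.03 and 0.23, smaller than the 0.62 of Nfix. Most like Nfia were Fam131b (r = 0.98), Rmnd5a (r = 0.96), a subunit of the CTLH ubiquitin ligase, and Asap3 (r = 0.96), an ARF GTPase-activating protein. Most like Nfib were 4930522L14Rik (r = 0.97), Zscan30 (r = 0.94) and Gm15834 (r = 0.93). Most like Nfic were Sugp2 (r = 0.97), Vars1 (r = 0.96), the valyl-tRNA synthetase, and Kat6a (r = 0.95), a histone acetyltransferase. These names describe likeness over 10 tumors and say nothing of shared control.

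Tumor fragments hold host cells, so the members were set beside marker lists of 12 cell types or states. None of the 48 relations between an NFI gene and a list within groups passed (smallest adjusted p = 0.297, exact permutation), and 3 had an unadjusted p under 0.05, all with Nfia. These were the Schwann cell list (r = −0.76, ρ = −0.76, p = 0.00618, adjusted p = 0.297), the T and NK cell list (r = 0.77, ρ = 0.77, p = 0.0141, adjusted p = 0.338) and the fibroblast list (r = −0.81, ρ = −0.66, p = 0.0237, adjusted p = 0.379), by the same exact permutation. Without the 2 tumors farthest from the median of Nfia, r was −0.65, 0.57 and −0.54. For Nfix the relation with the smallest p was with the fibroblast list (r = −0.67, ρ = −0.62, p = 0.0701, adjusted p = 0.642, exact permutation; r = −0.72 without the 2 tumors farthest from its median).

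No list's summed level separated the treatment groups without overlap. The largest median fold changes were those of the keratinocyte list (median log2 fold change 2.36, 0 of 5 tested genes called; summed level 8.64 to 19.2 CPM with vehicle and 6.91 to 208 CPM with liraglutide), the T and NK cell list (0.74, 0 of 6 called; 5.17 to 24.0 and 8.21 to 31.7 CPM) and the skeletal muscle list (0.74, 0 of 5 called; 29.8 to 232 and 57.3 to 280 CPM). The satellite cell marker Pax7 had at most 3 counts in any tumor. The proliferation list had a median log2 fold change of −0.39 with 0 of 8 genes called. The part of these cells in the difference of Nfix was not tested.

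A list of 75 genes known as regulators, partners or targets of NFI proteins held 49 tested genes (Sox6 and Prkcq are counted both as partners and as muscle targets). The edgeR test called 0 of them, as did DESeq2 and limma-voom, and at an unadjusted p under 0.05 there were 2 higher and 1 lower, beside 9.59% of all genes tested. These 3 became 1 without liraglutide tumor 5, 9 without vehicle tumor 4 and 7 without the count filter. Over all genes tested, the count moved from 1675 to 919, 2704 and 2432 with the same settings. Without the filter, genes with fewer counts were tested too, so that count has a larger base. The median log2 fold change was −0.05, beside −0.02 over all genes tested. No gene of the list had groups without overlap, beside 1.49% of all genes tested, a share at which a list of this size would hold few or none.

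Of the 12 regulators that act upstream of NFI genes, 9 were tested, 2 of them with a positive fold change (median −0.16). Over all genes tested, 8280 of 17464 had a positive fold change (median −0.02). Nothing is read from the splits of this and the following lists, which are small. The kinase Rock1, part of the pathway that restrains Nfix in muscle, had 304 ± 14.9 CPM with vehicle and 272 ± 14.0 with liraglutide (log2 fold change −0.16, edgeR adjusted p = 0.540). Pax7, which drives Nfix in fetal muscle, and Pou3f2 had at most 3 counts. Of the 15 partner proteins, 13 were tested, 6 with a positive fold change (median −0.02). The corepressor Ski, which binds NFI proteins, had 177 ± 27.7 CPM with vehicle and 236 ± 23.7 with liraglutide (log2 fold change 0.42, SE 0.12, unadjusted p = 0.00561, edgeR adjusted p = 0.482), with ranges of 150 to 221 and 196 to 256 CPM that overlapped. Nkx2-1, the lung lineage factor that binds with NFI at surfactant promoters, had 46.3 ± 33.4 and 91.8 ± 32.5 CPM (log2 fold change 0.99, unadjusted p = 0.0495, edgeR adjusted p = 0.520).

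Several targets known from other tissues were at or below the floor. Of 15 neural and glial targets 8 were tested, 1 with a positive fold change (median −0.23), and Gfap, Aqp4, Mmd2 and Gabra6 had at most 3 counts in any tumor. Of 7 muscle targets 5 were tested, 4 with a positive fold change (median 0.66), and the slow myosin gene Myh7, which NFIX represses during development, ranged from 0.484 to 29.5 CPM with vehicle and from 4.32 to 44.3 with liraglutide (log2 fold change 1.12, edgeR adjusted p = 0.675). These muscle genes belong to the same tissue as the skeletal muscle markers above, and Ckm is on both lists.

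Of 7 lung epithelial targets 6 were tested, 4 with a positive log2 fold change (median 0.69) and 0 called. The surfactant gene Sftpb, the most abundant of them and named here after its values were seen, had 274 ± 220 CPM with vehicle and 256 ± 126 with liraglutide (−0.10, edgeR adjusted p = 0.963). Pdpn, a marker of alveolar type 1 cells and likewise named afterwards, had 4.24 ± 1.12 and 3.31 ± 0.831 CPM (−0.35, edgeR adjusted p = 0.641). Aqp5, also named afterwards, went the other way, with 25.2 ± 19.9 and 43.8 ± 21.5 CPM (0.80, edgeR adjusted p = 0.624). The lipid transporter Abca3 had 82.6 ± 30.3 CPM with vehicle and 123 ± 41.2 with liraglutide (0.58, edgeR adjusted p = 0.547). The club cell gene Scgb1a1 (1.98 ± 1.70 and 5.89 ± 8.14 CPM, 1.57) and the surfactant gene Sftpc (1.15 ± 2.09 and 2.84 ± 2.36 CPM, 1.28) were low and variable, with adjusted p of 0.560 and 0.698 by edgeR. Of 21 targets in mesenchyme, fat, blood and secretory epithelium 9 were tested, 5 with a positive fold change (median 0.24). The cell cycle inhibitor Cdkn1a had 65.3 ± 16.9 and 46.9 ± 10.2 CPM (−0.48, unadjusted p = 0.0362, edgeR adjusted p = 0.512), and Fabp4, a fatty acid carrier of adipocytes, 25.7 ± 19.3 and 15.0 ± 3.95 CPM (−0.77, edgeR adjusted p = 0.581). The milk protein gene Csn2 and the brown fat gene Ucp1 had no count in any tumor, which allows up to 0.207 to 0.315 CPM.

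The genes next to Nfix were compared in the same way. Within 250 kb there were 25 other protein-coding genes, of which 21 were tested. The log2 fold change was negative in 18 and positive in 3, with a median of −0.17, beside 8280 positive of 17464 and a median of −0.02 over all genes tested. The edgeR test called 0, with 2 at an unadjusted p under 0.05, a share near the 9.59% of all genes tested. The first gene clear of the Nfix 3′ end, Nacc1, had a log2 fold change of −0.09, and Dand5, the first past its 5′ end, one of −0.40 at 2.31 and 1.76 CPM. The positive neighbours were the calcium channel gene Cacna1a (means 3.27 and 5.82 CPM, vehicle first, 0.83, SE 0.41, edgeR adjusted p = 0.541), Lyl1 (means 1.08 and 1.61 CPM, 0.59, SE 0.31, edgeR adjusted p = 0.566) and the lysosomal nuclease gene Dnase2a (means 5.88 and 6.99 CPM, 0.25). The meiosis gene Syce2 had means of 12.9 CPM with vehicle and 7.31 CPM with liraglutide (−0.81, unadjusted p = 0.0102, edgeR adjusted p = 0.482). Get3, which delivers tail-anchored proteins to the endoplasmic reticulum, was the 1 neighbour with groups without overlap, lower with liraglutide (means 34.9 and 30.1 CPM, −0.21, unadjusted p = 0.0410, edgeR adjusted p = 0.515), beside 0.888% of all genes tested.

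**Figure D5:**
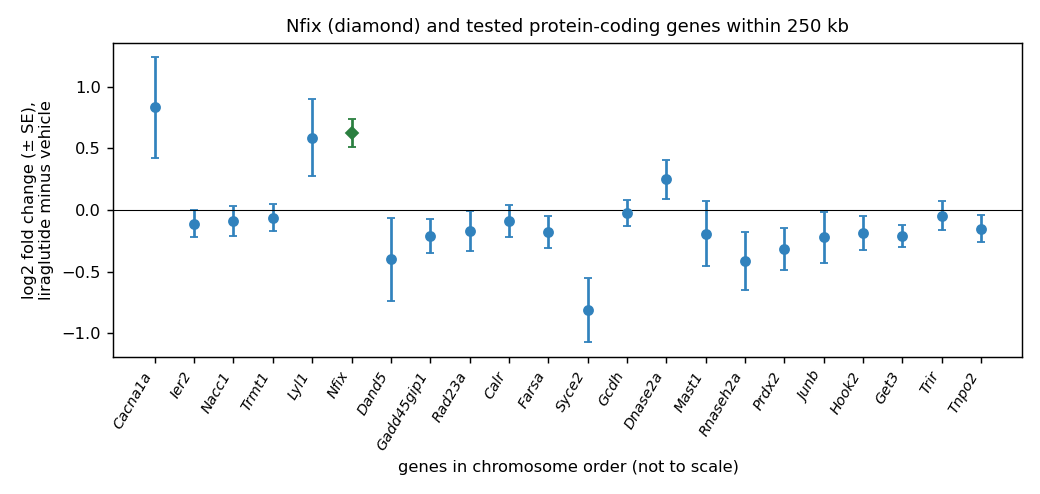
Log2 fold change (± SE) between liraglutide and vehicle tumors of Nfix (green diamond) and the 21 tested protein-coding genes within 250 kb (blue circles), in chromosome order and not to scale. Nfix stands at 0.62, and 18 of the 21 neighbours lie below 0.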

How the data were processed

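RNA-seq counts of 10 tumors (5 liraglutide, 5 vehicle) were used. The authors deposited raw counts per gene, made per the study's methods by mapping read pairs to GRCm39 with TopHat and counting with featureCounts. Samples that failed their quality checks had been dropped before. The submitters' processing notes list the builds GRCh38 and mm10. Kit libraries mark strand by dUTP, and the strand setting and annotation release are not given in the sources used here. Of the deposited identifiers 51731 (93.38%, 98.31% of counts) matched GENCODE M39 without their version, which gave positions and lengths, and only 35 had the same version, so lengths may differ in detail. Sequences were read from GRCm39.

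Counts were filtered (filterByExpr, 17464 genes kept), scaled (TMM) and compared by edgeR's quasi-likelihood test (version 4.0.16, R 4.3.3), with treatment as the single factor and Benjamini-Hochberg adjustment over all genes tested. DESeq2 1.42.0 (the study's tool) and limma 3.58.1 (voom) were alternatives. Fits and permutation tests were checked on simulated data. Correlations used log2 CPM (prior count 2) with group means removed, permuted over 14400 orders within groups (scipy 1.17.1). Between tumors of one group counts varied at least 9.53 times more than counting alone gives (chi-square per degree of freedom), so no tumor was counted as a repeat. Floors of 3 counts cover counting error only.

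Named were the 4 members. Of the pathway lists, the 5 genes with the smallest p and the 3 highest and 3 lowest log2 fold changes were named, with undetected examples. Named too were the 3 genes most like each member, the neighbours of Nfix, and marker genes that check the tissue. One gene that this rule names and some alleles of the cell line are not reported here. Members, lists and tests were chosen with earlier results of these data known.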

Additional observations from a re-analysis of the deposited data

How the results depend on the processing

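With 17 other settings, the fold changes of Nfia and Nfib kept their sign, and none of the 3 paralogs was called. The sign of Nfix was fixed by its choice, so its values show size only. Leaving out 1 tumor gave log2 fold changes of 0.046 to 0.22 (Nfia), 0.11 to 0.19 (Nfib), −0.050 to 0.17 (Nfic, negative without vehicle tumor 4) and 0.58 to 0.72 (Nfix). The other settings gave 0.12 to 0.17, 0.15 to 0.20, 0.06 to 0.12 and 0.63 to 0.68, with adjusted p for the paralogs of 0.332 to 0.900. DESeq2 called 52 genes of the whole table where edgeR called 0, and none of the 3 paralogs or the NFI list. Neighbours that differed in the order of levels numbered 0 per merged exons, 2 per coding length and 1 per longest transcript, and nothing is read from the pair of Nfia and Nfix among the 2, since it rests on the values that chose the family. Pairs of members that covaried numbered 0 to 1 when 1 tumor was left out. Over these 10 fits r ranged from −0.19 to 0.50 for Nfia and Nfib (negative without vehicle tumor 2), from −0.66 to 0.68 for Nfia and Nfic and from −0.28 to 0.75 for Nfic and Nfix (both negative without vehicle tumor 5), from −0.68 to 0.095 for Nfib and Nfic (positive without vehicle tumor 4), from −0.29 to 0.021 for Nfib and Nfix (positive without vehicle tumor 3) and from 0.56 to 0.88 for Nfia and Nfix. The r of Nfib and Nfix also turned to 0.59 without removal of group means and to 0.15 with library size alone. The cause was not tested.

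Tumor numbers were shared by both groups but came from different mice. Same-numbered tumors deviated with r of 0.35, 0.57, −0.08, 0.07 and 0.39, and 3 of 10 tumors correlated best with their own number, so the numbers were not taken as pairs, although the mean r was 0.26 for same-numbered and −0.07 for other pairs. With the number as a replicate block, log2 fold changes were 0.13 (Nfia), 0.15 (Nfib), 0.09 (Nfic) and 0.63 (Nfix), and 0 genes were called. Genes with an unadjusted p under 0.05 rose in number from 1675 to 2585, and those of the NFI list from 3 to 12. With the block r turned to 0.24 for Nfib and Nfix and −0.14 for Nfic and Nfix, and moved to 0.96 for Nfia and Nfix and −0.14 for Nfib and Nfic. Precision is limited by 5 tumors a group, and genes with few counts also by depth.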
